A study of Mus musculus with 28 samples.

Results

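The 9 genes described here encode surface receptors that T cells use to hold on to tissue or to leave it. They were chosen by symbol, with earlier results of these data known. All 9 were found among the 43430 gene IDs of the count tables. Counts of the 9 called are therefore set beside the share of all genes as description, with no test of the set. Itgae, Itga4, Itgal and Itgav encode integrin alpha chains, Itgb1, Itgb7 and Itgb2 encode integrin beta chains, Cd44 encodes the hyaluronan receptor, and S1pr1 encodes a receptor for sphingosine 1-phosphate (S1P). An integrin reaches the cell surface only as a pair of 1 alpha and 1 beta chain, so the same beta chain can serve several receptors. Itgae pairs with Itgb7 (the CD103 receptor, which binds E-cadherin on epithelium), Itga4 pairs with Itgb7 (the receptor for MAdCAM-1 on gut vessels) or with Itgb1 (VLA-4, which binds VCAM-1 and fibronectin), Itgal pairs with Itgb2 (LFA-1, which binds ICAM-1), and Itgav pairs with Itgb1 or other beta chains in receptors that bind matrix and latent TGF-beta. S1pr1 acts in the opposite sense, since it guides T cells out of lymphoid organs along the S1P gradient.

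RNA was measured in regulatory T (Treg) cells sorted as CD4+, YFP-Foxp3+ and CD25+ from C57BL/6NJ mice, in 28 libraries. RISP_WT and RISP_KO (n = 4 each) are cells of 3-week-old mice in which Uqcrfs1 was intact or deleted; this gene encodes RISP, the Rieske protein of respiratory complex III. RISP_Chimera_WT and RISP_Chimera_KO (n = 4 each) are the same genotypes from chimeras aged 8 to 12 weeks. The in vitro groups (n = 3 each) are RISP WT cells of 3-week-old mice, left untreated or given piericidin at 1 µM, which blocks complex I, 3-NPA (3-nitropropionate) at 500 µM, which blocks complex II, or antimycin A at 1 µM, which blocks complex III. The driver of the deletion, the cells the chimeras' hosts still had, and the length of the inhibitor exposure are not given in the sources used here.

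Values below are CPM, the counts of a gene divided by the total of its library and multiplied by 1000000. Depth was 28446051 to 50769961 counts a library in RISP_WT and RISP_KO, 20437386 to 31019835 in the chimeras and 2707199 to 3445930 in vitro. Uqcrfs1 read 5.14 to 7.45 CPM in RISP_KO against 154 to 189 CPM in RISP_WT, and 4.83 to 11.3 CPM against 73.5 to 85.9 CPM in the chimeras, so each knockout library was below each control. All 6 Treg markers looked at had counts in every group, but Foxp3 read 24.4 to 38.1 CPM in RISP_WT and RISP_KO, made with the Takara kit, and 386 to 508 CPM in the chimeras, made with the NEB kit. Xist and the Y-linked Ddx3y also differed between the tables. Ddx3y was at 0 in all 8 chimera libraries and read 119 to 184 CPM in the 12 in vitro libraries, while among 3-week-old mice it read at most 0.2 CPM in replicates 1 and 2 of both genotypes, 13.8 (wild type) and 4.39 CPM (knockout) in replicate 3, and 99.5 and 80.9 CPM in replicate 4.

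In mm10 the genes lie at chr11:73090583-73147446 (Itgae), chr2:79255426-79333123 (Itga4), chr7:127296260-127335137 (Itgal), chr2:83724397-83806916 (Itgav), chr8:128685654-128733200 (Itgb1), chr15:102215995-102231935 (Itgb7), chr10:77530252-77565708 (Itgb2), chr2:102811141-102901665 (Cd44) and chr3:115710433-115715055 (S1pr1). Exons of Itga4 share 1124 bases with the antisense gene Cerkl and exons of Itgav share 634 bases with the antisense gene Gm13684. The strand setting of the counting is not given in the sources used here, so reads of those stretches cannot be assigned to 1 gene. The promoters of 5 of the 9 genes (Itga4, Itgav, Itgb1, Itgb7 and Cd44) were matched in the RefSeq table of build GRCm38.p6. Of these, 3 are shown, picked by the results below. Itga4 and Itgb1, the chains of VLA-4, were both lower in RISP_KO, while Itgb7, the other partner of Itga4, was not called. Each run is the 250 bases before the start of the gene, read 5′ to 3′ on the gene's strand, from chr2:79255176-79255425 (Itga4, plus strand), chr8:128685404-128685653 (Itgb1, plus strand) and chr15:102231936-102232185 (Itgb7, minus strand). Capitals mark CACCC on either strand, the core of the sites bound by Krüppel-like factors such as Klf2.
Itga4 promoter: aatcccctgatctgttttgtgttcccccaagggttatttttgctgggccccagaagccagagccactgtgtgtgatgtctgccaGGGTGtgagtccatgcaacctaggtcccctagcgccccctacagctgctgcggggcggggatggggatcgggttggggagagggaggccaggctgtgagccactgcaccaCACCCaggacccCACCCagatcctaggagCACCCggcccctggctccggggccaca
Itgb1 promoter: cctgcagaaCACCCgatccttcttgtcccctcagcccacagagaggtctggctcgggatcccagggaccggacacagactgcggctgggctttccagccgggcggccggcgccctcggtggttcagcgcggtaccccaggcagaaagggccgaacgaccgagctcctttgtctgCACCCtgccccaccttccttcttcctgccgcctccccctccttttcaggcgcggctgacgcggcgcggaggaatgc
Itgb7 promoter: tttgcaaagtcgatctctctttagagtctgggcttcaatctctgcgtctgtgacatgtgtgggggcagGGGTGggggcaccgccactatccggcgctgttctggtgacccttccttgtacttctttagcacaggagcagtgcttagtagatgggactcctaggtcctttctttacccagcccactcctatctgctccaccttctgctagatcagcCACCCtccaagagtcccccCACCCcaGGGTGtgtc
CACCC was found 4 times before Itga4, 2 times before Itgb1 and 4 times before Itgb7, also once before Itgav and not in the window before Cd44. It is a common motif, present in 52.0% of the 32817 promoter windows of the same length. TGATGNAA, the ATF4 type motif, is in 3.45% of all windows and in none of the 5. Other motifs were looked for as well. GGGCGG, in 32.7% of all windows, was found before Itga4 and Itgb1 only. CAGAC, in 42.2%, was found before Itga4, Itgb1 and Itgb7. CCGGAA (12.0% of all windows) and TGANTCA (6.75%) were in none of the 5. The part of any motif in the results below was not tested.

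Per kilobase of the longest coding transcript, Itgb7 was the most abundant of the 9 genes in each of the 3 control groups. In RISP_WT it stood at 705 ± 62.3 CPM per kb (SD, n = 4), followed by Itgb2 at 345 ± 12.7, S1pr1 at 288 ± 32.3, Itgb1 at 210 ± 22.2 and Itgal at 164 ± 1.49. Cd44 (23.4 ± 3.50), Itgae (22.7 ± 7.28), Itga4 (17.6 ± 0.749) and Itgav (10.8 ± 0.720) were several-fold lower, and Cd44 and Itgae did not differ beyond their spread. In RISP_Chimera_WT the order was Itgb7 (325 ± 17.5), Itgb2 (228 ± 12.3), Itgal (156 ± 14.9), S1pr1 (151 ± 8.67), Itga4 (72.7 ± 5.23), Itgb1 (66.1 ± 2.28), Cd44 (22.8 ± 3.21), Itgae (16.2 ± 4.40) and Itgav (11.1 ± 1.33). The neighbours Itgal and S1pr1 lay within their spread there. In untreated cells in vitro Itgb7 (174 ± 9.03, n = 3) and Itgb2 (143 ± 8.52) led again. Itgal (111 ± 0.597), Itgb1 (70.8 ± 4.59) and S1pr1 (50.4 ± 2.38) followed, while Cd44 (29.9 ± 2.61), Itgae (27.1 ± 2.08), Itgav (23.1 ± 3.44) and Itga4 (21.9 ± 4.76) were close to each other. The order depends on the length used. With the gene lengths of the deposited tables, which join all exons of a gene, Itgb7 still led in each group (614 ± 54.3 CPM per kb in RISP_WT), but S1pr1 (290 ± 32.5) came before Itgb2 (114 ± 4.20) and Itgal stood at 37.9 ± 0.345. S1pr1 was also the next after Itgb7 with those lengths in RISP_Chimera_WT (152 ± 8.72) and in untreated cells (50.6 ± 2.39, with Itgb2 at 47.1 ± 2.81). Levels are not compared between the 3 control groups, since the kit differs between RISP_WT and the others, age between the chimeras and the others, and the setting between all 3.

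In Treg cells of 3-week-old mice both chains of VLA-4 and, by less, the alpha chain of LFA-1 were lower in the knockout. Of the 9 genes, 3 fell (Itga4, Itgb1 and Itgal) and none of the 9 was called higher, against a background of 5.08% of 13832 genes called lower and 4.78% called higher (9.86% in either direction). The median log2 fold change was -0.23 over the 9 genes and 0.004 over all genes tested. Differences were tested with the edgeR quasi-likelihood test and "called" means a p under 0.05 after Benjamini-Hochberg adjustment. The sources do not say whether replicates are separate mice, so p-values measure the spread between these libraries. Whether 2 groups overlap is given as description only, since the share of all genes whose groups do not overlap was not counted.

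Itga4 read 43.6, 52.8, 41.5 and 67.8 CPM in RISP_KO against 166, 169, 178 and 177 CPM in RISP_WT (replicates 1 to 4). All 4 knockout libraries were far below all 4 controls, and the controls lay close together. The level was 3.32-fold lower, a log2 fold change of -1.73 ± 0.15 (SE, edgeR adjusted p = 0.00013). Itgal, which makes LFA-1 with Itgb2, read 619.6, 684, 644 and 736 CPM against 861, 875, 833 and 863 CPM. The groups did not overlap, but the change was small, at -0.34 ± 0.08 on the log2 scale (edgeR adjusted p = 0.0200). This call was lost without RISP_WT replicate 1 (adjusted p = 0.0660), RISP_WT replicate 3 (0.0529) or RISP_KO replicate 3 (0.0554).

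The other alpha chains were not called by edgeR. Itgae read 99.0, 114, 172 and 151 CPM in RISP_KO against 119.5, 100.1, 76.1 and 55.1 CPM in RISP_WT. The 2 groups overlapped, with the highest knockout library above every control and the lowest below 2 of them (log2 fold change 0.63 ± 0.24, edgeR adjusted p = 0.130). Itgav read 32.8, 46.5, 51.4 and 69.3 CPM against 79.1, 82.7, 68.9 and 74.8 CPM. Only RISP_KO replicate 4 reached the range of the controls (-0.59 ± 0.19, edgeR adjusted p = 0.0815). Without that library the difference was called at -0.81 (edgeR adjusted p = 0.0106). DESeq2 called Itgav with every library kept (-0.58, DESeq2 adjusted p = 0.0437).

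Among the beta chains, Itgb1 read 246, 276, 437 and 381 CPM in RISP_KO against 874, 884, 752 and 708 CPM in RISP_WT. Every knockout library was below every control, and replicates 1 and 2 were lower than 3 and 4 within the knockout. The level was 2.37-fold lower (log2 fold change -1.25 ± 0.18, edgeR adjusted p = 0.00171). Itgb7, the beta chain of both CD103 and the gut homing receptor, read 1308, 1551, 1896 and 1682 CPM against 1996, 1799, 2040.2 and 1755 CPM. RISP_KO replicate 3 lay inside the range of the controls (-0.23 ± 0.12, adjusted p = 0.269). Itgb2, the leukocyte beta chain, read 999.8, 1042, 1149.7 and 1053 CPM against 1068, 1016, 977 and 1052 CPM, with overlapping groups (0.06 ± 0.07, 95% interval -0.10 to 0.22).

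Cd44 read 148, 120.0, 114 and 114 CPM in RISP_KO against 158, 134, 120.4 and 114 CPM in RISP_WT, and its groups overlapped almost wholly (-0.08 ± 0.12, 95% interval -0.34 to 0.18). S1pr1 read 573, 636, 973 and 832 CPM against 795, 807, 967 and 953 CPM. In both genotypes replicates 1 and 2 were lower than 3 and 4, and the groups overlapped (-0.21 ± 0.16, 95% interval -0.57 to 0.15).

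Markers of other cell types differed between these groups. The 9 macrophage markers summed to 4.61 to 9.33 CPM in RISP_KO and 8.61 to 40.1 CPM in RISP_WT, and the 8 B cell markers to 568 to 792 CPM and 781 to 983 CPM. The 4 CD8 T cell markers summed to 47.3 to 73.5 CPM against 19.2 to 24.2 CPM, through Gzma (34.4 against 1.13 CPM on average), while Cd8a itself stayed near 1 CPM in both (0.999 and 0.982 CPM). The 5 plasma cell markers summed to 349 to 431 CPM against 188 to 253 CPM. Of the 4 plasma cell markers tested 1 was called higher, and the other 3 had negative log2 fold changes (median -0.46). The 6 T cell markers summed to 3840 to 4270 CPM against 4830 to 5060 CPM. The 5 natural killer cell markers summed to 12.8 to 21.9 CPM against 4.24 to 7.59 CPM. Of 3 tested 1 was called higher and 2 had negative log2 fold changes. The 8 epithelial and stromal markers summed to 118 to 147 CPM against 196 to 215 CPM. Dendritic cell markers summed to 3.18 to 5.84 CPM against 6.14 to 7.09 CPM. The groups were apart for the sums of CD8, plasma, T, natural killer, dendritic, and epithelial and stromal markers. They overlapped for the other lists, macrophages and B cells among them. The part of these cells in the results above was not tested. In bulk RNA, fewer cells that carry a transcript and less of it per cell cannot be told apart.

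**Figure D1:**
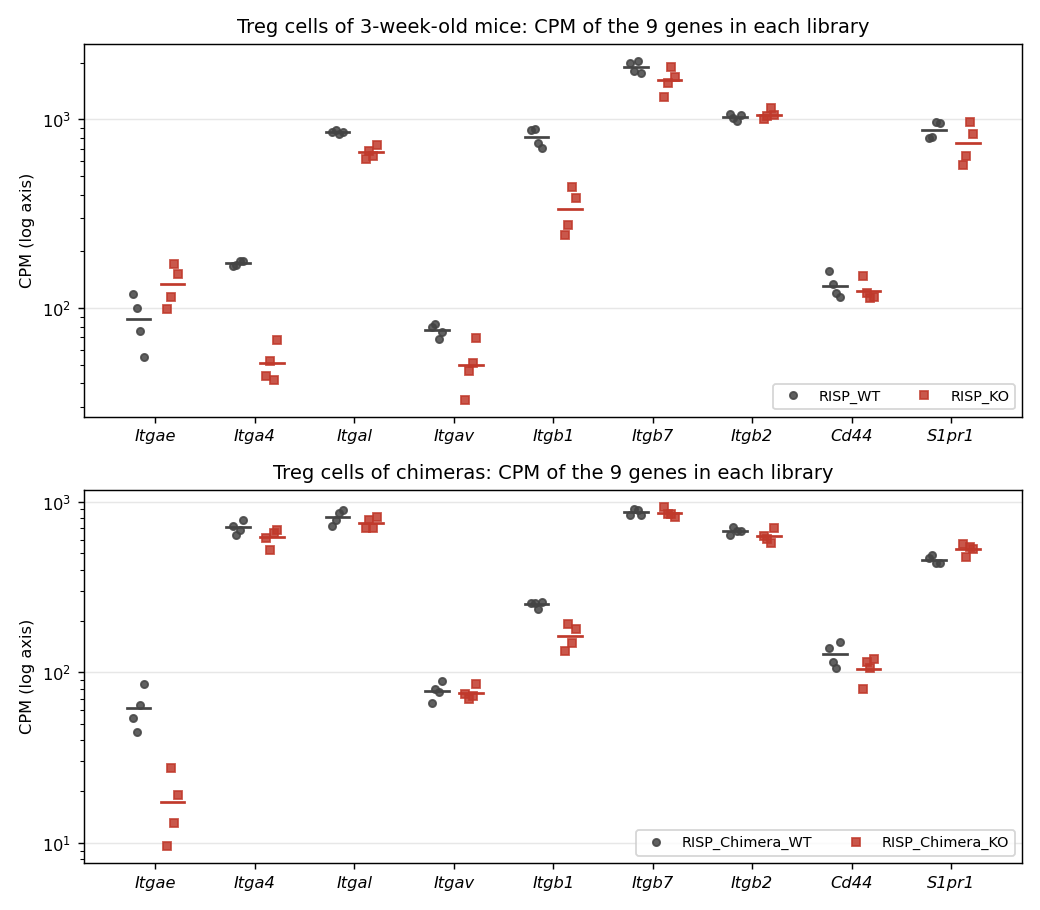
CPM of each of the 9 genes in every library of 3-week-old mice (top) and chimeras (bottom), on log axes; points are libraries, dark circles are controls, red squares are knockouts and bars are group means. Itga4 (41.5 to 67.8 against 166 to 178 CPM) and Itgb1 part the groups in the top panel, and Itgae (9.57 to 27.4 against 44.7 to 85.6 CPM) and Itgb1 in the bottom panel.

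In Treg cells of chimeras the CD103 alpha chain and again Itgb1 were lower in the knockout. Of the 9 genes 2 fell (Itgae and Itgb1), against a background of 0.542% of 14399 genes called lower (0.708% in either direction and 0.167% higher). The median log2 fold change of the 9 genes was -0.13, against 0.00036 over all genes.

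Itgae read 9.57, 27.4, 13.0 and 19.1 CPM in RISP_Chimera_KO against 53.8, 44.7, 64.0 and 85.6 CPM in RISP_Chimera_WT. The highest knockout library was still well below the lowest control. The level was 3.64-fold lower, with a log2 fold change of -1.86 ± 0.27 (SE, edgeR adjusted p = 0.00935). Itgb1 read 134, 191, 149 and 179.6 CPM against 254, 256, 236 and 257 CPM. The groups did not overlap and the level was 1.56-fold lower (log2 fold change -0.64 ± 0.10, edgeR adjusted p = 0.0107), a call lost without RISP_Chimera_WT replicate 2 (adjusted p = 0.0544). RISP_Chimera_KO replicates 2 and 4 had the highest sums of macrophage markers, at 67.8 and 83.0 CPM against 21.8 to 54.4 CPM in the other 6 chimera libraries, and were also the highest knockout libraries for Itgae and Itgb1. With both left out the log2 fold changes were -2.46 ± 0.24 for Itgae (adjusted p = 5.53e-04) and -0.83 ± 0.09 for Itgb1 (adjusted p = 7.13e-04). Since the 2 libraries were the highest for these genes, their removal could only lower the knockout means, and these values lend the calls no support. The 6 T cell markers summed to 2610 to 2740 CPM in RISP_Chimera_KO and 2760 to 2890 CPM in RISP_Chimera_WT, and their part in these results was not tested.

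Itga4 read 616, 518, 656 and 680.3 CPM in RISP_Chimera_KO against 724, 639, 678 and 783 CPM in RISP_Chimera_WT. The groups overlapped (-0.21 ± 0.09, 95% interval -0.40 to -0.02, edgeR adjusted p = 0.324). Itgal read 702, 780.2, 705 and 813 CPM against 716, 783, 858 and 889.6 CPM, also with overlap (-0.13 ± 0.08, adjusted p = 0.519). Itgav read 74.3, 69.6, 72.9 and 84.8 CPM against 65.9, 79.3, 76.1 and 89.2 CPM, where the knockout libraries lay inside the range of the controls (-0.06 ± 0.09, 95% interval -0.26 to 0.14).

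The beta chains Itgb7 and Itgb2 also overlapped between the chimera groups. Itgb7 read 929, 846, 842 and 816 CPM against 836, 900.0, 888 and 839 CPM (-0.03 ± 0.07, 95% interval -0.18 to 0.12). Itgb2 read 631, 608, 571 and 702 CPM against 637, 706, 671 and 670.3 CPM (-0.12 ± 0.07, 95% interval -0.27 to 0.04). Cd44 read 80.0, 115, 105 and 119 CPM against 138, 115, 106 and 149 CPM, with RISP_Chimera_KO replicate 1 the lowest of the 8 (-0.29 ± 0.12, edgeR adjusted p = 0.335). For S1pr1, 567, 476, 539.6 and 531 CPM stood against 465, 484, 436 and 439 CPM. Of the 4 knockout libraries 3 were above all controls, and the difference was not called (0.19 ± 0.07, adjusted p = 0.289).

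The effect of the knockout on 2 alpha chains differed between the settings when the difference itself was tested in 1 fit of the 16 libraries. Of 15580 genes 3.27% were called for such a difference (1.23% higher and 2.04% lower in the chimeras). Itgae differed by -2.52 ± 0.40 on the log2 scale (SE, edgeR adjusted p = 0.00175), since it was 3.64-fold lower in the chimeras' knockout and not called in 3-week-old mice, where its fold change was positive. Itga4 differed the other way, by 1.51 ± 0.18 (adjusted p = 1.81e-04), as it was 3.32-fold lower in 3-week-old mice and overlapped between the chimera groups. Itgb1 was lower in both knockouts, and the difference between the effects was not called (0.59 ± 0.21, 95% interval 0.14 to 1.04, adjusted p = 0.159). Library kit, age, the setting and the expression of Xist and Ddx3y changed together between the 2 pairs of groups, so they cannot be told apart.

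In vitro, the comparisons with piericidin, 3-NPA and antimycin A share the same 3 untreated libraries. A gene that is low in those libraries can therefore part from them in each comparison. Separation without a call lends a gene no support. Antimycin A gave the most calls among the 9 genes. With it 4 rose (S1pr1, Itgae, Cd44 and Itgal) against a background of 6.50% of 11689 genes called higher (15.0% in either direction, 8.50% lower), and all 9 fold changes were positive, with a median of 0.22 against 0.02 over all genes.

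S1pr1 read 238, 200.1 and 229 CPM with antimycin A against 144, 161 and 148 CPM untreated. The groups were well apart, with a log2 fold change of 0.53 ± 0.11 (SE, edgeR adjusted p = 3.60e-04). Itgae read 158, 133 and 153 CPM against 94.5, 112 and 102 CPM, again without overlap (0.50 ± 0.13, adjusted p = 0.00529). Cd44 read 238, 222 and 205 CPM against 166, 152 and 178 CPM. The groups did not overlap (0.40 ± 0.11, adjusted p = 0.00723), but the call was lost without untreated replicate 2 (adjusted p = 0.0570) or antimycin A replicate 1 (0.0596). Itgal read 678, 694 and 669.8 CPM against 565, 581 and 573 CPM. These groups were tight and apart, and the change was small (0.22 ± 0.08, adjusted p = 0.0465), with no call in any fit that left out 1 of the 6 libraries (adjusted p 0.0821 to 0.155).

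The other 5 genes were not called by edgeR with antimycin A. Itgav read 192, 212 and 178 CPM against 151, 189.5 and 141 CPM and overlapped (0.25 ± 0.11, edgeR adjusted p = 0.132, called without untreated replicate 2 at 0.38, adjusted p = 0.0298). Itgb7 read 517, 549.5 and 555 CPM against 457, 439.5 and 479 CPM, and Itgb1 read 287, 311 and 305 CPM against 249.9, 264 and 284 CPM. Both were higher in every treated library, by 0.21 ± 0.08 (edgeR adjusted p = 0.0766) and 0.15 ± 0.10 (edgeR adjusted p = 0.314). DESeq2 called Itgb7 (0.21, DESeq2 adjusted p = 0.0265). Itga4 (209.7, 281 and 204 against 189.6, 266 and 176 CPM) and Itgb2 (484, 444 and 416 against 434, 429 and 388 CPM) overlapped, with log2 fold changes of 0.11 ± 0.13 and 0.08 ± 0.09.

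With piericidin 1 of the 9 genes rose, Itgav, against a background of 5.62% of genes called higher (13.6% in either direction, 7.93% lower). Itgav read 245, 253 and 235 CPM with piericidin against 151, 189.5 and 141 CPM untreated. Every treated library was above every untreated one (log2 fold change 0.58 ± 0.11, edgeR adjusted p = 2.68e-04). Cd44 read 233, 179 and 208 CPM with piericidin and was above the untreated range by a narrow margin (0.30 ± 0.11, adjusted p = 0.0546, called at 0.39 without piericidin replicate 2, adjusted p = 0.0239). S1pr1 (186, 166 and 205 CPM), Itgb7 (574, 529.9 and 528 CPM) and Itgal (589, 699 and 675 CPM) also lay above all untreated libraries without a call (0.27 ± 0.11, 0.22 ± 0.08 and 0.17 ± 0.08). Itgae (113, 101 and 120.3 CPM), Itga4 (169.7, 223 and 179 CPM), Itgb1 (217, 277 and 277 CPM) and Itgb2 (411, 442 and 403 CPM) overlapped with the untreated libraries, with log2 fold changes from -0.17 ± 0.13 to 0.09 ± 0.13.

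With 3-NPA no member was called in the main edgeR fit, where 3.23% of genes were (1.35% higher and 1.87% lower). At an unadjusted p under 0.05 there were 2 of the 9, Cd44 and S1pr1, beside 16.4% of all genes. DESeq2 called 1 of the 9, Cd44, among 672 genes in all. Cd44 read 231, 194 and 214 CPM, all above the untreated libraries (0.33 ± 0.11, edgeR adjusted p = 0.0846), and S1pr1 read 204, 167 and 193 CPM, likewise above them (0.28 ± 0.11, adjusted p = 0.161). Itgae read 81.5, 108 and 80.4 CPM, with 2 libraries below the untreated range and 1 within it (-0.24 ± 0.13, adjusted p = 0.383). Itgal (653, 629 and 686 CPM) and Itgb7 (483, 533 and 484 CPM) lay above the untreated range, at 0.16 ± 0.08 and 0.09 ± 0.08. Itga4 (215, 292 and 243 CPM), Itgav (207, 156 and 190.1 CPM), Itgb1 (273, 307 and 293 CPM) and Itgb2 (422, 369 and 415 CPM) overlapped, with log2 fold changes from -0.09 ± 0.09 to 0.21 ± 0.13.

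**Figure D2:**
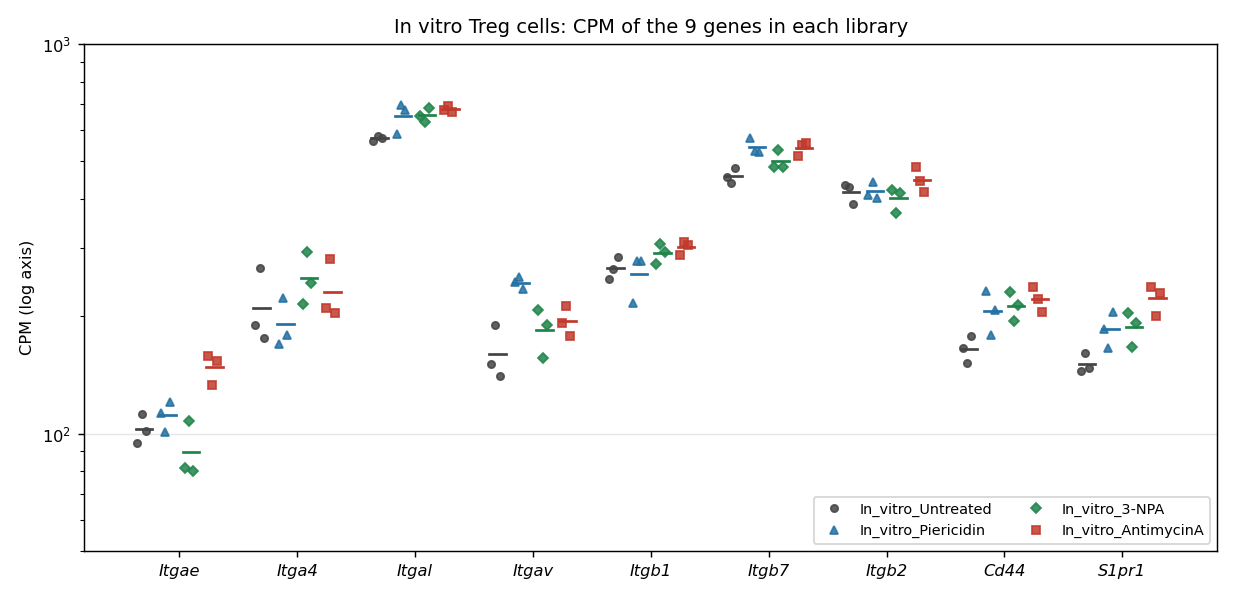
CPM of each of the 9 genes in the 12 in vitro libraries, on a log axis; symbols stand for the treatment and bars are group means. Antimycin A libraries (200.1 to 238 CPM) are above the untreated ones (144 to 161 CPM) for S1pr1, and piericidin libraries (235 to 253 CPM) are above them (141 to 189.5 CPM) for Itgav.

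The inhibitors were also compared with each other, in 3 pairs adjusted over all genes within each pair; doses differ between the compounds (1, 500 and 1 µM). Antimycin A against 3-NPA gave 1 call of 9, Itgae, which was 0.74 ± 0.13 higher on the log2 scale with antimycin A (edgeR adjusted p = 4.41e-04, with 1.60% of genes called higher and 3.98% in either direction). Its 3 antimycin A libraries (133 to 158 CPM) were all above the 3 libraries with 3-NPA (80.4 to 108 CPM). Piericidin against 3-NPA also gave 1 call of 9, Itgav, 0.42 ± 0.11 higher with piericidin (adjusted p = 0.0216, with 1.87% of genes called higher, 2.43% lower and 4.29% in either direction), which was lost when any 1 of 5 of the 6 libraries was left out. There Itgae, Itga4 and Itgav, 3 of the 9, had an unadjusted p under 0.05, as did 17.7% of all genes. Itga4 was at -0.38 ± 0.13 (edgeR adjusted p = 0.0936), with overlapping groups. Antimycin A against piericidin gave none by edgeR or DESeq2, where edgeR called 0.736% of genes, and 5 of the 9 had an unadjusted p under 0.05, as did 10.5% of all genes. In that pair Itgae differed by 0.41 ± 0.13 (95% interval 0.14 to 0.67, adjusted p = 0.163) and Itgav by -0.33 ± 0.11 (95% interval -0.55 to -0.11, adjusted p = 0.191).

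**Figure D3:**
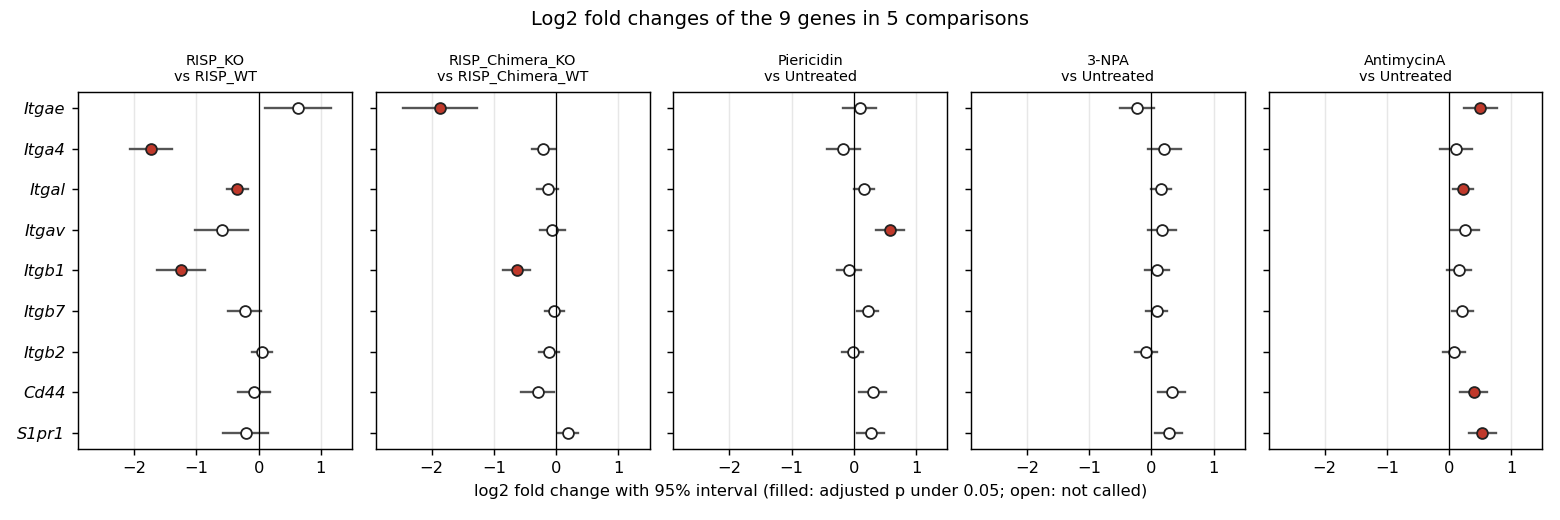
Log2 fold change (x axis) of each gene in the 5 comparisons with a control; points are edgeR estimates, lines are 95% intervals, and filled points are called at an adjusted p under 0.05. Itga4 (-1.73) and Itgb1 (-1.25) stand out for RISP_KO, Itgae (-1.86) for the chimeras, Itgav (0.58) for piericidin and S1pr1 (0.53) and Itgae (0.50) for antimycin A.

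Ratios of an alpha chain to its beta chain, taken within each library from counts per kb, show how the chains shifted against each other. A ratio alone does not show which chain changed. In RISP_WT the ratio of Itga4 to Itgb7 was 0.0229, 0.0258, 0.0240 and 0.0277, and in RISP_KO it was 0.00915, 0.00935, 0.00602 and 0.0111. The knockout libraries were all lower, by 1.53 on the log2 scale (difference of means -1.53, pooled SD 0.28). The ratio of Itga4 to Itgb1 overlapped (-0.48, pooled SD 0.36), since both chains of VLA-4 were lower. The ratio of Itgae to Itgb7 was 0.0514 to 0.0631 in RISP_KO against 0.0219 to 0.0418 in RISP_WT, without overlap (0.89, pooled SD 0.34). Neither Itgae nor Itgb7 was called in that comparison. Itgal to Itgb2 was also apart, at -0.40 (pooled SD 0.10).

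In the chimeras the ratio of Itgae to Itgb7 moved the other way, from 0.0347 to 0.0712 in RISP_Chimera_WT to 0.00719 to 0.0226 in RISP_Chimera_KO (-1.90 on the log2 scale, pooled SD 0.59). No library of one group reached the other. The ratios of Itga4 to Itgb7 (-0.18) and Itgal to Itgb2 (-0.01) overlapped. Itgav to Itgb1 was higher in the knockout in both settings and without overlap, by 0.64 (pooled SD 0.22) in 3-week-old mice and 0.59 (pooled SD 0.22) in chimeras. In both settings Itgb1 was called lower and Itgav was not called by edgeR. With piericidin the same ratio was 0.458 to 0.610 against 0.268 to 0.388 untreated (0.67, pooled SD 0.24), also without overlap, and there Itgav was the chain that rose. Itgae to Itgb7 was lower with 3-NPA without overlap (-0.33, pooled SD 0.16). It overlapped with antimycin A (0.29, pooled SD 0.17) and with piericidin (-0.13, pooled SD 0.15). The ratios were chosen with earlier results known and carry no test.

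**Figure D4:**
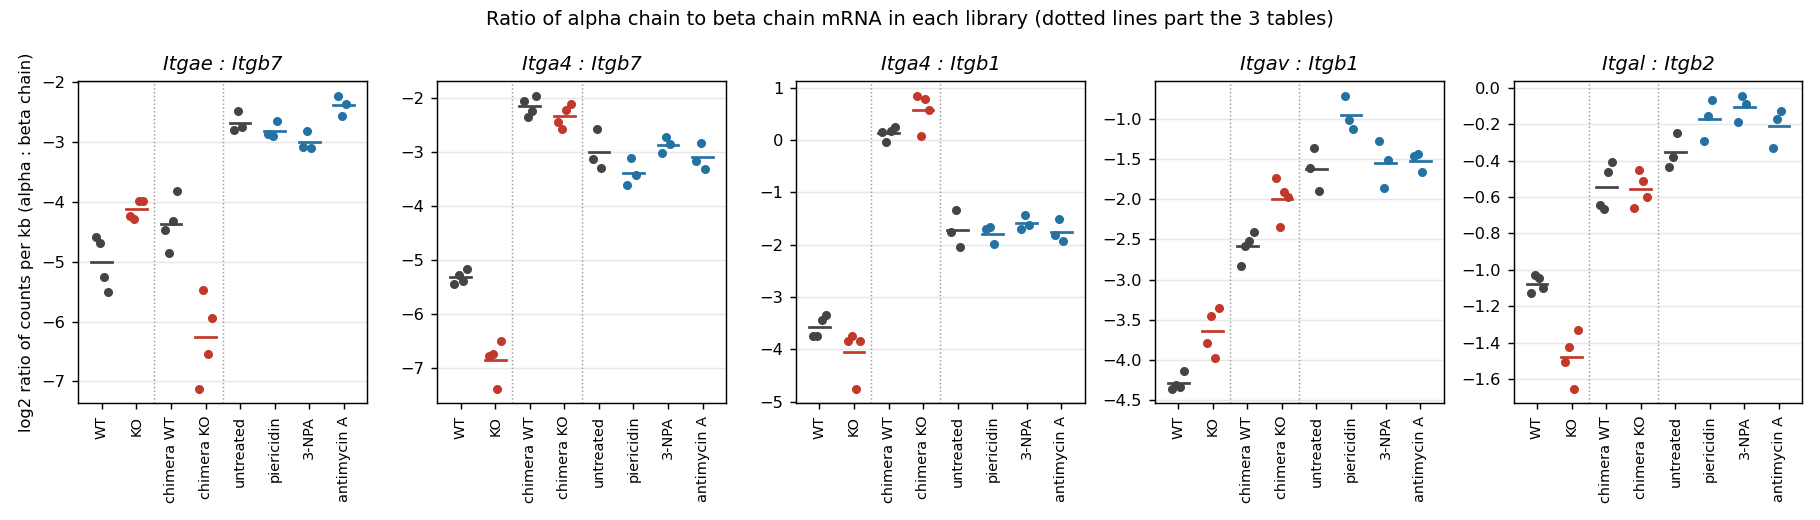
Log2 ratio of alpha chain to beta chain counts per kb in each library, with 1 panel for each pair; points are libraries, bars are group means, dark points are controls, red points are knockouts, blue points are inhibitors, and dotted lines part the 3 count tables. Itga4 : Itgb7 is lower in RISP_KO (-1.53) and Itgae : Itgb7 is lower in RISP_Chimera_KO (-1.90).

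Genes around these receptors were read from 7 lists of 118 distinct genes, which cover other integrin subunits, integrin activation, ligands, S1P handling, selectins, tissue residency and TGF-beta signalling. These lists were also chosen with earlier results of these data known. Their shares beside those of all genes are description and carry no test. In RISP_KO 99 were tested, of which 6 rose and 9 fell (15.2%, against 9.86% of all genes), and their median log2 fold change was -0.11. The tissue residency list held most of the calls, with 6 of 15 lower and 2 higher and a median of -0.48. Its smallest p-values belonged to Gpr55, a lipid receptor (-1.28 ± 0.19, edgeR adjusted p = 0.00240), the repressor Hic1 (-1.50 ± 0.26) and the surface protein Cd101 (-0.68 ± 0.13). The 2 that rose were the transcription factor Bhlhe40 (0.84 ± 0.19) and Rgs1, a regulator of G protein signalling (0.47 ± 0.12), named after their values were seen. Among other integrin subunits 1 of 15 fell, the myeloid chain Itgam (-1.18 ± 0.32), and among ligands 1 of 8 fell, Vcam1, the ligand of VLA-4 (-2.63 ± 0.61). Both are made by macrophages, whose markers Adgre1, Csf1r and C1qb were lower as well (-3.66 ± 0.77, -2.99 ± 0.67 and -2.24 ± 0.47), and the part of those cells was not tested. Among integrin activators, Cyth1, which binds the tail of Itgb2, rose (0.37 ± 0.07) and Rasgrp2, the activator of Rap1, fell (-0.49 ± 0.13), of 26 tested. The chemokine receptor Ccr7 rose (0.40 ± 0.10, 1 of 12 in the S1P and egress list), as did the fucosyltransferase Fut4 (2.08 ± 0.34, 1 of 12 in the selectin list) and Lrrc32, which presents latent TGF-beta on Treg cells (0.59 ± 0.16, 1 of 14).

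In the chimeras 3 of 100 tested list genes fell and none rose (3.00%, against 0.708% of all genes). They were the laminin receptor chain Itga3 (-1.11 ± 0.20, edgeR adjusted p = 0.0305), the aryl hydrocarbon receptor Ahr (-0.80 ± 0.12, adjusted p = 0.0107) and the ATP receptor P2rx7 (-0.35 ± 0.07, adjusted p = 0.0421). Ahr and P2rx7 are 2 of the 14 residency genes tested, whose median was -0.41. Epcam, read here as an epithelial marker, was lower too (-1.32 ± 0.24, at 1.97 to 3.83 against 6.12 to 8.96 CPM). Cdh1, which encodes E-cadherin, the ligand of CD103, was close to 0 in these sorted cells. It passed the filter on low counts in the chimeras without a call (-1.21 ± 1.05, adjusted p = 0.678) and was not tested in 3-week-old mice. Epcam and Cdh1 were named after their values were seen. For the difference of knockout effects 5 of 108 were called (4.63%, against 3.27%). Itgam, Rasgrp2 and Has3, a hyaluronan synthase, were higher in the chimeras (1.92 ± 0.46, 0.77 ± 0.19 and 3.45 ± 1.07), and Rgs1 and Lrrc32 were lower (-1.17 ± 0.25 and -0.90 ± 0.21).

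In vitro 84 of the list genes were tested. With antimycin A 19 rose and 2 fell (25.0%, against 15.0% of all genes). The beta chains Itgb3 (1.45 ± 0.17, edgeR adjusted p = 5.82e-08) and Itgb8 (0.62 ± 0.14), which pair with Itgav in receptors for matrix and latent TGF-beta, rose, 2 of 7 other subunits tested. Of 11 genes in the S1P and egress list 5 rose, led by Klf2, a transcription factor that drives S1pr1 (0.49 ± 0.10, adjusted p = 3.68e-04), the S1P phosphatase Sgpp1 (0.48 ± 0.12) and the S1P lyase Sgpl1 (0.52 ± 0.14), and Cd69, which holds S1pr1 inside the cell, also rose (0.47 ± 0.15). Of 26 genes of integrin activation 6 rose, with the smallest p-values for the adaptor Fyb (0.56 ± 0.09), the kinase Ptk2b (0.45 ± 0.10) and Rasgrp2 (0.78 ± 0.19). In the TGF-beta list Smad4 (0.80 ± 0.13), the receptor Tgfbr2 (0.44 ± 0.10) and Itgb8 rose and the receptor Tgfbr1 fell (-0.49 ± 0.10), of 14. Fibronectin (Fn1, 2.38 ± 0.58) rose among 6 ligands, from a low untreated level of 3.29 ± 1.89 CPM (SD). St3gal4, a sialyltransferase, fell among 10 selectin genes (-0.57 ± 0.20), and 4 of 13 residency genes rose, among them Gpr55 (1.01 ± 0.25).

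With piericidin 12 rose and 5 fell of 84 (20.2%, against 13.6%). Itgb8 (0.91 ± 0.14, edgeR adjusted p = 9.89e-06) and Itgb3 (1.03 ± 0.18) rose beside Itgav, and so did Itga2b (3.28 ± 0.90), the platelet integrin chain, which was in 1 untreated library at 1.46 CPM, in 1 at 0.337 and in 1 at 0. The 7 platelet and red cell markers summed to 7.27 to 14.1 CPM with piericidin and 1.35 to 4.96 CPM untreated. Klf2 (0.48 ± 0.10), Cd69 (0.63 ± 0.15) and Sgpl1 (0.46 ± 0.14) rose, of 11 tested in the S1P and egress list. The kindlin Fermt3, which activates beta chains, fell (-0.42 ± 0.09), and so did Icam1, the ligand of LFA-1 (-0.68 ± 0.15). With 3-NPA 2 rose and 3 fell (5.95%, against 3.23%). Itgb3 (0.88 ± 0.18, adjusted p = 0.00271) and the protease Furin (0.42 ± 0.12) rose, and among those that fell were Tgfbr1 (-0.41 ± 0.10) and Fermt3 (-0.32 ± 0.09).

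The genes whose levels followed the 9 most closely were read from 10910 genes as the mean of Pearson's r within the 3 tables (8, 8 and 12 libraries, which include both groups of each comparison and share their depth and kit). The closest to Itga4 were Sh3bgrl (mean r 0.807), Gas2l1 (0.787) and Uqcrfs1 itself (0.777, with 0.972, 0.536 and 0.823 in 3-week-old mice, chimeras and in vitro). Uqcrfs1 is the deleted gene, so in 3-week-old mice and chimeras its r mainly restates how Itga4 differed between genotypes. In vitro both genes were highest in replicate 2 of each group. Among the closest to Itgb1 were S100a11 and Osbpl5, and closest to Itgae were Vps54 (0.726), Cst7 (0.725) and Tjp3 (0.724). Beside S1pr1 stood Msn (0.857), which encodes moesin, the integrin chain Itgb3 (0.850) and the transcription factor Lef1 (0.845). For Itgal they were Tigit (0.843), Kansl1 (0.838) and Zfp646 (0.832), for Itgav Slc9a9 (0.802), Kcna3 (0.800) and Elmod2 (0.772), for Itgb7 Klf3 (0.815), Prkx (0.792) and Ripk1 (0.771), for Cd44 Icos (0.754), Spock2 (0.726) and Src (0.703), and for Itgb2 Csnk1g2 (0.664), Noxo1 (0.623) and Rnf149 (0.611). These values describe the libraries and carry no test.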

How the data were processed

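The authors deposited raw read counts per Ensembl gene and library in 3 tables (3-week-old mice, chimeras, in vitro). Per the submitters' processing notes, bcl2fastq, TopHat, HTSeq, edgeR and mm10 were used, in versions not given in the sources used here. Per the labels' protocols, RISP_WT and RISP_KO libraries were made with a SMART-Seq v4 and Nextera XT workflow (Takara kit), and the others with NEBNext Ultra I after poly(A) selection (NEB kit). Of 43430 gene IDs 42462 have a symbol, and IDs without one hold 0.110 to 0.779% of a library's counts. The 11 per-sample columns of 1 more table match no label and were left out.

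The main test was edgeR 4.0.16 in R 4.3.3 (filterByExpr by group, TMM, quasi-likelihood F-test, Benjamini-Hochberg over all genes tested), fitted on each whole table, on the 12 in vitro libraries together, and on 16 libraries for the difference of knockout effects. limma 3.58.1 was loaded with edgeR, and DESeq2 1.42.0 was an alternative. All 9 members passed the filter in every fit. SE is the unshrunken log2 fold change divided by the square root of F, and the prior count was 0.125. Single libraries are given as CPM of the library's total, and group means ± SD and folds use totals scaled by TMM. The coefficient of variation between libraries was 21.6%, 20.5% and 14.7% in the 3 tables and 22.1% in the fit of 16. No 2 libraries agreed within sampling noise, and the scripts were tested on simulated counts with known changes. Levels between genes are per kb of the longest coding GENCODE M21 transcript. Promoters are RefSeq windows (GRCm38.p6).

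The members and lists were chosen with earlier results of these data known. Named are all members, up to 3 called genes with the smallest p of a list in a comparison, and the 3 genes most like each member. A few genes that this rule names are not reported here. Alternatives were DESeq2, RLE factors, no filter, a replicate block, only the 2 groups compared in vitro, and leaving out each library. Leaving out RISP_Chimera_KO replicates 2 and 4 together, and lengths from the deposited tables, were added after the data were seen.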

Additional observations from a re-analysis of the deposited data

Results flagged for a closer look

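Among 36 groups of 4 libraries looked at (9 genes in 4 groups), 1 held a library far from the others. Itgb1 in RISP_Chimera_WT read 235.8 CPM in replicate 3, and 254 to 257 CPM in the other 3 libraries, so the gap took 0.875 of the range. Such a gap arises by chance in about 1 of 20 groups. The library is the lowest control and still lies above the highest RISP_Chimera_KO library, at 191 CPM. Without it the log2 fold change of Itgb1 was -0.66 (edgeR adjusted p = 0.0264).

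The knockout effect differed between chimeras and 3-week-old mice for Itgae and Itga4 by the test of the difference itself (chimeras minus 3-week-old mice). Itgae differed by -2.52 (edgeR adjusted p = 0.00175) and Itga4 by 1.51 (adjusted p = 1.81e-04). Both were called in all 20 other fits that changed 1 setting or left out 1 library, with values from -2.82 to -2.32 for Itgae and from 1.42 to 1.68 for Itga4.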

How the results depend on the processing

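Itga4 and Itgb1 in RISP_KO, Itgae in RISP_Chimera_KO, Itgav with piericidin, S1pr1 and Itgae with antimycin A, Itgae between antimycin A and 3-NPA, and both called differences of knockout effects kept their call and direction in every other fit that changed 1 setting or left out 1 library (12 for RISP_KO, 12 for the chimeras, 20 for the difference and 11 in vitro). Leaving out 1 library gave 2 to 4 called members for RISP_KO, 1 to 2 for the chimeras, 2 to 3 for the difference, 1 to 2 for piericidin, 0 for 3-NPA, 2 to 3 for antimycin A, 0 for antimycin A against piericidin, 1 for antimycin A against 3-NPA and 0 to 1 for piericidin against 3-NPA. Over all genes the same fits called 787 to 1486 for RISP_KO, 33 to 177 for the chimeras, 323 to 627 for the difference, 1009 to 1421 for piericidin, 130 to 295 for 3-NPA, 1261 to 1613 for antimycin A, and 43 to 75, 188 to 454 and 230 to 409 for the 3 pairs in that order. With DESeq2 there were 4 for RISP_KO (Itgav gained) and 5 for antimycin A (Itgb7 gained), among 2148 and 2184 genes called in all. DESeq2 gave 4 for piericidin (Itgav, Itgb7, Cd44 and S1pr1) and 1 for 3-NPA (Cd44), among 2025 and 672 genes called in all. With no filter there were 2 for piericidin against 3-NPA. The labels do not say that a replicate number marks a shared animal or batch, and in none of the 3 tables was every same-number correlation over 0.1, so the numbers were not taken to pair the samples. The correlation r of same-numbered libraries ran from -0.0411 to 0.0290 (3-week-old), from -0.102 to 0.127 (chimeras) and from 0.00400 to 0.0904 (in vitro), and 0 of 8, 2 of 8 and 8 of 12 libraries correlated best with their own number. In vitro all 18 same-number correlations were positive, a hint of pairing from the data, not from the design. With the replicate block there were 2 called members for RISP_KO (Itgal lost, adjusted p = 0.0558), 2 for piericidin (Itgav and Cd44, the latter at 0.295, adjusted p = 0.0354), 1 for 3-NPA (Cd44 at 0.324, adjusted p = 0.0490) and 2 for piericidin against 3-NPA. Itgal with antimycin A was also lost without the filter (adjusted p = 0.0813) and with only the 2 groups compared (0.0596). Log2 fold changes that turned sign were uncalled ones near 0. Each is given with its range over the fits that changed 1 setting or left out 1 library. In RISP_KO it was Cd44 (-0.160 to 0.0253, positive without RISP_WT replicate 1). In the chimeras they were Itgav (-0.136 to 0.00616, positive without RISP_Chimera_WT replicate 4) and Itgb7 (-0.0782 to 0.00402, positive without RISP_Chimera_KO replicate 4). Itgb7 was at 0.0313 without RISP_Chimera_KO replicates 2 and 4. With piericidin they were Itgb2 (-0.0695 to 0.0168, positive without untreated replicate 1 or piericidin replicate 3) and Itga4 (-0.293 to 0.0240, positive without untreated replicate 2). Itgb1 with piericidin was another (-0.126 to 0.0239, positive without piericidin replicate 1). With antimycin A it was Itga4 (-0.0606 to 0.306, negative without untreated replicate 3 or antimycin A replicate 2). The cause was not tested. With 4 or 3 libraries a group and a spread of 14.7 to 21.6% between libraries, small changes may be missed.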

Other observations

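In vitro, replicate 2 had the highest Itga4 level in each of the 4 groups, at 266 CPM untreated, 223 CPM with piericidin, 292 CPM with 3-NPA and 281 CPM with antimycin A, while the other libraries read 169.7 to 243 CPM. Uqcrfs1 was also highest in replicate 2 of each group, at 74.4 to 105 CPM against 42.9 to 70.1 CPM in the others. In 3-week-old mice S1pr1 was lower in replicates 1 and 2 (573 to 807 CPM) than in replicates 3 and 4 (832 to 973 CPM) of both genotypes. Itgae in replicates 1 and 2 read 99.0 and 114 CPM in RISP_KO against 119.5 and 100.1 CPM in RISP_WT. In replicates 3 and 4 Itgae read 172 and 151 CPM against 76.1 and 55.1 CPM. Replicates 1 and 2 are the libraries in which Ddx3y was at most 0.2 CPM, and replicates 3 and 4 those in which it was 4.39 CPM or more. The part of this in the results was not tested.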
